A study of Mus musculus with 23 samples.

Results

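The effect of phenobarbital on wild-type liver was taken as the difference between 4 arrays of treated mice and 5 arrays of control mice, 9 of the 23 arrays in the series. The arrays were chosen by the group in their labels, and no measured value entered the choice. Both groups were male wild-type mice of the C3H strain, named C3H/He in the description of the animals. The treated mice ate 0.05% phenobarbital for 12 weeks, and the controls ate a diet free of it, while the control labels also name water as a vehicle at 0 %. The labels do not give the age of the mice, nor whether the wild-type mice carried the floxed Ctnnb1 allele or the albumin-driven Cre alone. The other 14 arrays came from mice bred to lose Ctnnb1, the gene of beta-catenin, in hepatocytes (7 controls and 7 with phenobarbital). Replicates are numbered without a statement that they come from different animals, and the p-values therefore reflect only how much these samples vary, which may be technical.

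Phenobarbital is a barbiturate that activates the constitutive androstane receptor (CAR) of hepatocytes, in part by keeping the epidermal growth factor receptor inactive. CAR then enters the nucleus and, paired with the retinoid X receptor, switches on genes of drug oxidation, conjugation and export. In mice, long exposure enlarges the liver and promotes tumours, and C3H is a susceptible strain. Beta-catenin carries canonical Wnt signals and maintains the perivenous gene programme of hepatocytes near the central vein.

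Each value is a log2 signal per gene, so that 1 unit is a 2-fold difference. Genes were tested with limma in 1 fit over all 23 arrays, and an adjusted p (Benjamini-Hochberg) under 0.05 counted as a change. The error beside a log2 change is its standard error (SE). The lowest correlation between arrays of a wild-type group was 0.992. The median SD per gene was 0.122 in the wild-type controls and 0.0937 with phenobarbital, against 0.160 and 0.136 in the knockout groups. The 22 hepatocyte markers tested averaged 12.93 to 13.01 per control array and 12.91 to 12.95 per treated array. Precision is limited by how few arrays each group has. Gene groups are described through 49 lists, with 1417 different genes among those tested, and members under the filter on low values were not tested.

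Of 13826 genes tested, 532 (3.85%) changed with phenobarbital in wild-type liver: 269 rose (1.95%) and 263 fell (1.9%). The rises were larger, with a median log2 change of 0.53 among the called genes against -0.38 among those that fell. At least 2-fold changes numbered 66 upward and 24 downward (together 0.651%), and 58 of the 66 lay outside the cytochrome P450 family. At least 4-fold changes numbered 26 upward and 6 downward. Treated and control arrays had no overlap for 835 genes upward (6.04%) and 769 downward (5.56%), and 475 of the 532 called genes were among them. With only the 9 wild-type arrays in the fit, 485 genes rose (3.64% of 13329) and 457 fell (3.43%). Without phenobarbital replicate 1 or replicate 3 the count of genes that fell was 153 or 120.

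The size and direction of change differed with the level of a gene in control liver. In the lowest of 4 equal groups by control level, 2.79 to 5.49, 55 genes rose and 5 fell, and 29 of the rises were at least 2-fold. In the highest group, 8.54 to 14.74, 87 rose and 123 fell, with 14 and 13 past 2-fold. Falls were thus called mostly at high signals. The lowest group held 29 of the 66 rises past 2-fold, and near background a fall can hardly be measured.

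**Figure D1:**
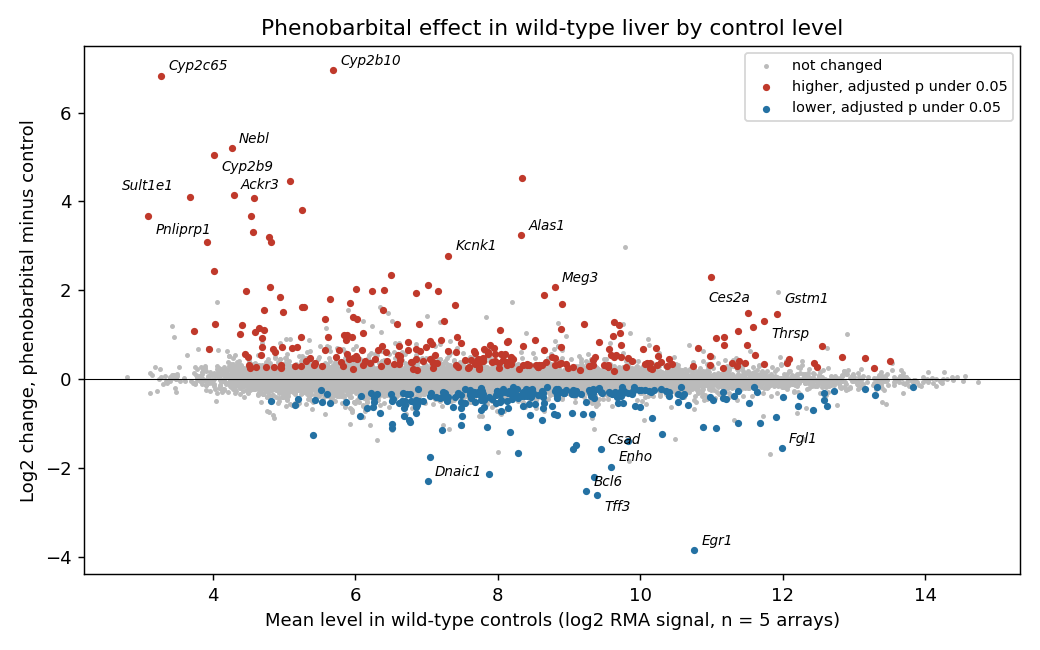
Log2 change with phenobarbital in wild-type liver (vertical axis) against the mean log2 signal in the 5 control arrays (horizontal axis), 1 point per gene tested, with called genes in colour. The 4 rises above 5 units (Cyp2b10, Cyp2c65, Nebl and Cyp2b9) start from control levels under 6, whereas Egr1 falls by 3.85 from 10.76.

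The treatment was checked on Cyp2b10, the P450 gene most used as a marker of CAR activity. Its 5 control arrays read 6.22, 5.42, 5.22, 5.90 and 5.66, and its 4 treated arrays 12.64, 12.65, 12.70 and 12.58. Every treated array was thus far above every control, and the treated arrays lay close together (log2 change 6.96, SE 0.37, limma adjusted p = 1.75e-11). Of 43 P450 genes tested, 9 rose (20.9%, against 1.95% of all genes tested) and 0 fell. Their median log2 change was 0.09, against 0.01 over all genes tested. With only the wild-type arrays fitted, 17 rose and 2 fell. Cyp2b13 and Cyp2b9, which are neighbours of Cyp2b10 on chromosome 7, rose by 4.46 (SE 0.52) and 5.04 (SE 0.64). Treated replicate 4 was the lowest for both, at 8.25 and 8.08, against 9.36 to 10.38 and 8.96 to 9.78 in the other treated arrays. Cyp2b genes are close relatives in sequence, and part of one gene's signal may come from another.

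Genes that were off in control liver and on with phenobarbital were defined by the level that 40% of all probe sets of an array stay under, which averaged 4.56 in the control arrays. All control arrays lay below it and all treated arrays above it for 8 genes, and 6 of them passed the test, which uses the same separation and is no independent support: Cyp2c65, Cyp2b9, Sult1e1, Pnliprp1, Fam171a1 and Adamtsl1. Since signals below that level carry little information, the change is also given as a lower bound against it. At the levels of 30% and 50% of probe sets, 5 and 21 genes were turned on. In the opposite direction 2 genes crossed the level, and 1 of them, the long non-coding RNA Kantr, passed the test (log2 change -0.49, SE 0.10, adjusted p = 0.00671).

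Pnliprp1 encodes a pancreatic lipase-related protein (GRCm38.p6, chromosome 19, 58728887 to 58744169). Its control arrays read 3.18, 3.02, 3.07, 3.21 and 3.00, and its treated arrays 6.82, 6.89, 6.76 and 6.60. The groups were separated by more than 3 units, and no array strayed from its group (log2 change 3.67, SE 0.09, at least 4.62-fold against the level). It passed the filter on low values only through the 4 treated wild-type arrays, with 0 of the other arrays above the level, so its values are given as a description without a p. Without any 1 treated array the gene was not tested. Of the 11 markers of pancreas and other tissues that were tested, 0 changed by the limma test and 3 rose at an unadjusted p under 0.05. Their mean per array was 5.88 to 6.31 in controls and 5.96 to 6.05 with phenobarbital.

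Sult1e1 encodes the oestrogen sulphotransferase, which inactivates oestrogens (chromosome 5, 87575968 to 87591611). It read 3.47, 3.74, 4.04, 3.72 and 3.45 in the controls and 7.24, 8.31, 7.31 and 8.24 with phenobarbital. Treated replicates 2 and 4 were about 1 unit above replicates 1 and 3, and all 4 were above every control (log2 change 4.09, SE 0.31, at least 9.30-fold). Only 2 arrays outside the treated wild-type group were above the level. Sult1e1 thus passed the filter only through the treated arrays, and no p is given for it. Sult1d1, the gene next to it and another sulphotransferase, was already strongly expressed and rose by 0.76 (SE 0.14, adjusted p = 0.0027).

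Fam171a1, a membrane protein gene (chromosome 2, 3114224 to 3227806), read 3.56 to 4.26 in the controls and 6.49, 6.31, 6.55 and 6.44 with phenobarbital (log2 change 2.44, SE 0.12, at least 3.70-fold). It too passed the filter only through the treated wild-type arrays, with 3 other arrays above the level, so no p is given. Nmt2, the neighbour of Fam171a1, was among the called rises. Adamtsl1, an ADAMTS-like gene (chromosome 4, 85513852 to 86428390), rose less, from 4.26 to 4.56 in the controls to 5.66, 5.91, 5.36 and 5.58 (log2 change 1.22, SE 0.17, adjusted p = 0.000135, at least 2.10-fold). Both P450 genes of the set had larger bounds, at least 46.5-fold for Cyp2c65 and at least 22.5-fold for Cyp2b9.

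The stretches before the start sites of the marker Cyp2b10 and of 3 genes that were turned on are shown to let their upstream sequences be compared. They hold the 250 bases before the RefSeq start in GRCm38.p6, 5′ to 3′ on the strand of the gene, and capitals mark AGGTCA or AGTTCA, hexamers to which nuclear receptors bind, and TATAAA, on either strand. Cyp2b10 is at chr7:25897408-25897657 (+), Cyp2b9 at chr7:26173159-26173408 (+), Sult1e1 at chr5:87591612-87591861 (-) and Pnliprp1 at chr19:58728637-58728886 (+). The phenobarbital-responsive enhancer known from Cyp2b10 lies further upstream than these windows.
Cyp2b10: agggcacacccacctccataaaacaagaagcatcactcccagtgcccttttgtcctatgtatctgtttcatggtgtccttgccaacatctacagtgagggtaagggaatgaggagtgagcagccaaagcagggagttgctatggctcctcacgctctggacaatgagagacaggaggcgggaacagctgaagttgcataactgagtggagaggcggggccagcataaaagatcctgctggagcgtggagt
Cyp2b9: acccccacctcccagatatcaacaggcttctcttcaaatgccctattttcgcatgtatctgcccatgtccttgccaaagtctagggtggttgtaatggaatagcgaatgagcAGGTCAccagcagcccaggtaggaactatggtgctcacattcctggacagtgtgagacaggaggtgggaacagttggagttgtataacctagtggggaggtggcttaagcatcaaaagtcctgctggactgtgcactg
Sult1e1: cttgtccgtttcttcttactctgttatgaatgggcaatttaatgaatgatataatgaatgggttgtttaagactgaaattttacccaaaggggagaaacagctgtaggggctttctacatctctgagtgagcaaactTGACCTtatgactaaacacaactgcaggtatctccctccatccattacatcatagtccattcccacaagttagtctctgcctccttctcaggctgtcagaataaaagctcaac
Pnliprp1: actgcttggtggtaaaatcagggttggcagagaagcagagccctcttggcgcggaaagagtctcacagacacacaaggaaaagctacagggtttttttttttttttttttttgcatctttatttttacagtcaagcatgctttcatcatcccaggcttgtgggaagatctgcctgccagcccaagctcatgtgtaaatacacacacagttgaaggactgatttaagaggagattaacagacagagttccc

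Cyp2b9 holds AGGTCA, Sult1e1 holds the same hexamer on the opposite strand, and neither hexamer is found in the stretches of Cyp2b10 and Pnliprp1. Windows of 300 bases, which run 50 bases past the start, were available for 11081 genes tested (14119 windows). Cyp2b10 and Cyp2b9 were identical at 229 of 314 alignment columns (72.9%) in these windows, against 45.0% for Cyp2b10 and Sult1e1 and 46.8% for Cyp2b10 and Pnliprp1. AGGTCA on either strand was present in 15.1% of the windows of genes that rose and 11.9% of those that fell, against 13.5% of all windows. For TATAAA the shares were 10.3% of rises, 8.77% of falls and 8.26% of all windows. The E-box CACGTG was in 11.6% of rises, 11.9% of falls and 9.43% of all. These shares are close to each other, and a match is not a site known to be bound.

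Outside the P450 genes, the largest log2 change upward was that of Nebl, which encodes nebulette, an actin-binding protein best known from heart muscle (chromosome 2, 17342673 to 17734949). The controls read 4.10, 4.32, 4.69, 4.32 and 3.90, and the treated arrays 9.23, 9.54, 9.65 and 9.44. The groups lay more than 4 units apart (log2 change 5.20, SE 0.20, adjusted p = 6.83e-14). Since 4 of the 5 controls were below the level of 4.56, the rise is also given against that level, as at least 29.5-fold. Of its 3 probe sets 1 passed the filter on low values. Of 38 genes of the cytoskeleton and muscle type tested, Nebl was the only one that rose, and Dnaic1 the only one that fell. Each is 2.63% of the list, near the 1.95% and 1.9% over all genes tested.

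Ackr3, a scavenging receptor for the chemokine CXCL12 (chromosome 1, 90203980 to 90215724), read 4.16, 4.44, 4.62, 3.83 and 4.42 in the controls and 8.55, 8.97, 8.05 and 8.21 with phenobarbital (log2 change 4.15, SE 0.43, adjusted p = 1.36e-06). Serpinb1a, an inhibitor of neutrophil proteases, read 4.17, 4.42, 4.63, 5.27 and 4.17 against 8.10, 8.57, 8.57 and 7.55 (3.67, SE 0.24, adjusted p = 1.07e-09). Lratd1, a gene with a lecithin-retinol acyltransferase domain, read 4.54, 4.58, 4.92, 4.22 and 4.54 against 7.70, 8.22, 8.10 and 7.45 (3.31, SE 0.22, adjusted p = 1.4e-09). Controls below the level of 4.56 numbered 4 of 5 for Ackr3, 3 for Serpinb1a and 2 for Lratd1, and against that level the rises were at least 14.7-fold, 11.2-fold and 9.39-fold. For all of these genes the treated group was at least 2 units above the highest control. Of 8 neutrophil markers tested 0 changed, and their mean per array was 5.13 to 5.27 in controls and 5.11 to 5.28 with phenobarbital.

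Prom1, which encodes the membrane protein prominin 1 (CD133) and is often used to mark progenitor cells, read 5.20, 4.51, 4.38, 4.88 and 4.95 in the controls and 8.11, 8.18, 8.27 and 7.37 with phenobarbital (log2 change 3.20, SE 0.38, adjusted p = 1.02e-05). It belonged to a list of 18 cholangiocyte and progenitor markers tested, of which only Prom1 rose and only Tff3 fell. The mean of the list per array was 5.64 to 5.78 in the controls and 5.72 to 5.85 with phenobarbital. In whole tissue, more cells of a type and more RNA per cell cannot be told apart.

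Kcnk1 and Moxd1 varied widely between arrays of one group, as did Alas1 below. Kcnk1, a potassium channel of the leak type, read 7.80, 8.93, 6.72, 5.01 and 8.04 in the controls and 10.03, 9.74, 9.90 and 10.64 with phenobarbital (log2 change 2.78, SE 0.45, adjusted p = 0.00061). Its control arrays spanned almost 4 units and its treated arrays under 1. Moxd1, related to the copper enzyme dopamine beta-hydroxylase, read 3.75 to 4.08 in the controls and 7.07, 6.39, 4.47 and 10.10 with phenobarbital (3.08, SE 0.68). All 5 controls and treated replicate 3 were below the level, against which the rise was at least 5.44-fold. Treated replicate 3 stood just above the controls and replicate 4 about 6 units above them, so the mean describes no single array. Without treated replicate 1, 2 or 4 it did not pass the filter and was not tested. Only 1 array outside the treated wild-type group was above the level, so no p is given for Moxd1.

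The remaining genes of the 15 largest rises were Cnmd, Smpd3, Abcc4, Sult1c2 and Alas1. Cnmd, which encodes the cartilage glycoprotein chondromodulin, rose by 2.34 (SE 0.39, adjusted p = 0.000889), from 6.12 to 6.97 in the controls to 8.72 to 8.94. Smpd3, a neutral sphingomyelinase that makes ceramide, rose by 2.07 (SE 0.43, adjusted p = 0.00569), from 4.69 to 4.94 to 6.74 to 7.08, and 2 of its 3 probe sets were called. The others are enzymes and pumps of drug metabolism and follow with their groups.

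**Figure D2:**
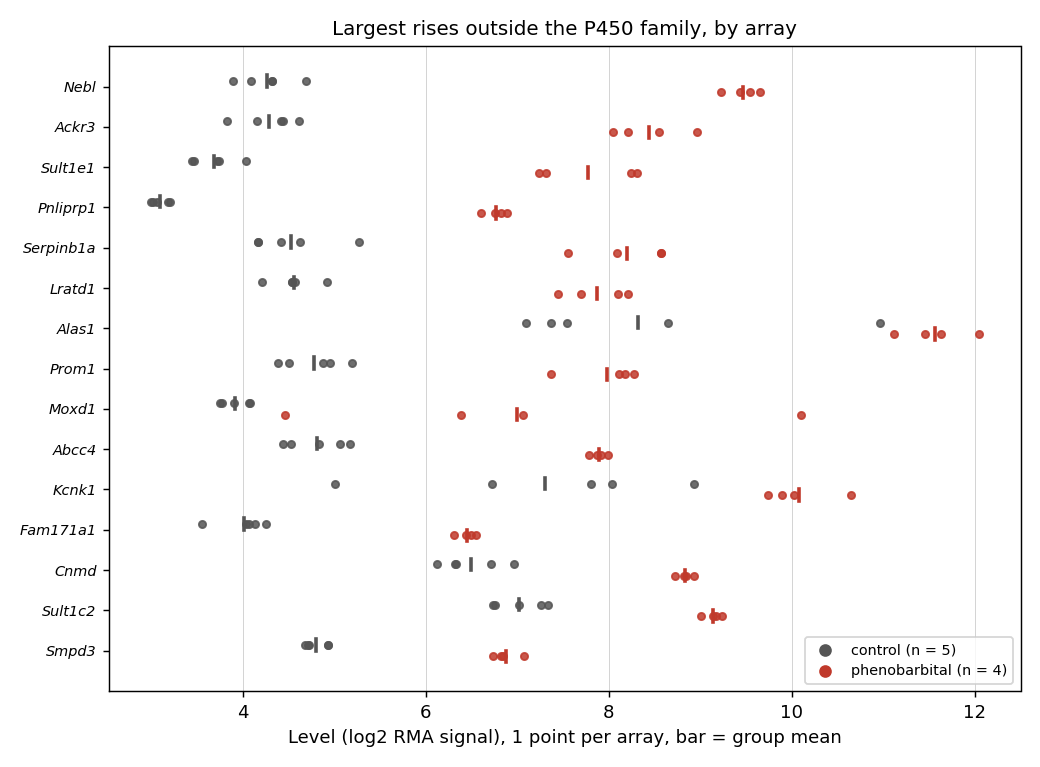
Log2 signal on each of the 5 control and 4 phenobarbital arrays for the 15 largest rises outside the P450 family, with group means as bars. No treated array overlaps with a control for any gene, Moxd1 spreads from 4.47 to 10.10 with phenobarbital, and control replicate 5 of Alas1 reaches 10.96, just under the lowest treated array.

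P450 enzymes need haem and electrons. Alas1, the rate-limiting enzyme of haem synthesis in liver, read 8.65, 7.55, 7.37, 7.10 and 10.96 in the controls and 11.64, 11.46, 12.05 and 11.12 with phenobarbital (log2 change 3.24, SE 0.65, adjusted p = 0.00466). Control replicate 5 stood more than 2 units above the next control and close to the treated arrays. Of 22 genes of haem synthesis and P450 electron supply tested, 3 rose (13.6%, against 1.95% of all genes tested) and 0 fell. The risers were Alas1, the electron carrier cytochrome b5 (Cyb5a, 0.26, SE 0.05, adjusted p = 0.00694) and its reductase Cyb5r3 (0.37, SE 0.10, adjusted p = 0.0383). The call of Cyb5r3 ended without any 1 of control replicates 1, 2, 3 and 5 or of the 4 treated replicates (adjusted p from 0.0549 to 0.126).

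Several families of conjugating enzymes had called rises and no called fall. Of 27 genes of glutathione transfer and synthesis tested, 5 rose (18.5%, against 1.95% of all genes tested) and 0 fell, with a median log2 change of 0.08. Gstt3, a theta-class transferase, read 9.05, 8.46, 8.46, 8.76 and 8.51 in the controls and 10.43, 10.64, 10.75 and 10.36 with phenobarbital (1.90, SE 0.27, adjusted p = 0.000109). Its neighbour Gstt1 rose by 0.55 (SE 0.09), and the adjacent mu-class pair Gstm1 and Gstm4 by 1.47 (SE 0.28) and 1.13 (SE 0.15). The alpha-class Gsta2 rose by 1.09 (SE 0.26, adjusted p = 0.0165), a call that ended without treated replicate 2 or 3 (adjusted p from 0.0502 to 0.0554). With only the wild-type arrays fitted, 8 of these genes rose and 1 fell.

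Of 28 genes of glucuronidation and sulphation tested, 5 rose (17.9%, against 1.95% of all genes tested) and 0 fell. With only the wild-type arrays fitted, 6 rose and 3 fell. The 5 include Sult1e1, which passed the filter only through the treated wild-type arrays and could be counted only by rising. Besides Sult1e1 and Sult1d1 the 5 were Sult1c2, a sulphotransferase (from 6.73 to 7.34 in the controls to 9.01 to 9.24, log2 change 2.12, SE 0.23), Ugt2b34, a glucuronosyltransferase (0.75, SE 0.10), and Ugdh, which makes UDP-glucuronate (0.44, SE 0.10, adjusted p = 0.0144). Of 62 esterases, epoxide hydrolases and oxidoreductases tested, 6 rose (9.68%) and 2 fell (3.23%), against 1.95% and 1.9% of all genes tested. Ces2a, a carboxylesterase, rose from 11.27 to 11.76 to 12.86 to 13.06 (1.49, SE 0.15, adjusted p = 6.87e-07). Ephx1, the microsomal epoxide hydrolase, rose by 0.94 (SE 0.15), and Ces1g, another carboxylesterase, by 0.76 (SE 0.13). The falls, Hsd17b6 and Aldh1b1, numbered 0 or 1 when any 1 array was left out.

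Among 45 transporters tested, 3 rose (6.67%, against 1.95% of all genes tested) and 0 fell, and the median log2 change of the list was -0.05. Abcc4, a pump for bile acids and conjugates in the sinusoidal membrane, read 5.17, 4.53, 5.07, 4.44 and 4.84 in the controls and 7.87, 7.99, 7.91 and 7.79 with phenobarbital (3.08, SE 0.41, adjusted p = 4.44e-05). Abcc3, a related pump, rose from 9.28 to 10.26 to 10.84 to 10.97 (1.28, SE 0.15), and the carnitine carrier Slc22a5 rose by 0.44 (SE 0.06). Of 28 targets of Nrf2, the factor that responds to oxidants and electrophiles, 8 rose (28.6%) and 1 fell (3.57%). Over all genes tested these shares were 1.95% and 1.9%, and the median of the list was 0.28. The risers included Abcc4, Gstm1, Gsta2 and Ephx1, which are counted in the groups above as well. The member that fell was Osgin1, an oxidative stress-induced growth inhibitor (-0.87, SE 0.22, adjusted p = 0.0227), and its call ended without control replicate 1, 2 or 5 or treated replicate 2 or 3 (adjusted p from 0.0626 to 0.088). In a list of 41 nuclear receptors, coregulators and related factors, the only change was that of Ahr (0.69, SE 0.15, adjusted p = 0.0103). Ahr, the aryl hydrocarbon receptor, is counted in this list but is not a nuclear receptor. It makes up 2.44% of the list, against 3.85% of all genes tested.

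Among genes of fat synthesis and storage only rises were called. Of 55 tested, 6 rose (10.9%, against 1.95% of all genes tested) and 0 fell. Treated and control arrays were separate for 13 upward and 0 downward, against 6.04% and 5.56% of all genes tested. The median log2 change was 0.12. Pnpla3, a lipid droplet protein with lipase and acyltransferase activity, read 6.51, 5.92, 5.99, 5.58 and 6.03 in the controls and 7.76, 8.74, 8.32 and 7.33 with phenobarbital (2.03, SE 0.43, adjusted p = 0.00693). The adjacent gene Pnpla5 had the same order of treated arrays, 7.29, 7.97, 7.44 and 6.72, over 5.68 to 6.27 in the controls (1.39, SE 0.33, adjusted p = 0.0163). Thrsp, a lipogenic factor induced by thyroid hormone, rose from 11.51 to 11.99 to 12.92 to 13.22 (1.30, SE 0.27, adjusted p = 0.00553). Elovl6, a fatty acid elongase, and Acaca, which makes malonyl-CoA, rose by 1.05 (SE 0.24, adjusted p = 0.0117) and 0.49 (SE 0.12, adjusted p = 0.0156).

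Treated replicate 2 was the highest of the 4 for Pnpla3, Pnpla5, Thrsp, Elovl6 and Acaca. Without it the count of fat synthesis genes that rose was 3, and Pnpla5 (adjusted p from 0.0582 to 0.0785 without treated replicate 2 or 3), Elovl6 (0.0594) and Acaca (0.061) no longer passed. With only the wild-type arrays fitted the count was 12, and with 1 weight per group 13. Among 28 genes of cholesterol synthesis 1 rose, the mevalonate pathway enzyme Mvd, a share of 3.57%, near the 3.85% of all genes tested that changed. The call of Mvd ended without control replicate 2, 3 or 5 or any treated replicate (adjusted p from 0.0572 to 0.112).

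Of 49 genes of fatty acid oxidation tested, 0 rose and 2 fell, a share near the 3.85% of all genes tested. Acaa1a, the peroxisomal thiolase, read 8.80, 8.88, 8.71, 8.99 and 8.79 in the controls and 7.97, 8.21, 8.02 and 7.91 with phenobarbital (-0.80, SE 0.07, adjusted p = 3.07e-07), with each probe set of the gene lower. The other was the acyl-CoA thioesterase Acot1 (-1.10, SE 0.27, adjusted p = 0.0193), whose groups overlapped and whose call ended without control replicate 5 or treated replicate 1, 3 or 4 (adjusted p from 0.0547 to 0.0878).

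Of 50 genes of glycolysis, gluconeogenesis and glycogen tested, 2 rose and 3 fell, together a larger share than over all genes tested, with a median log2 change of 0.06. Pklr, the liver pyruvate kinase, rose from 8.27 to 8.62 to 9.22 to 9.55 (0.87, SE 0.18, adjusted p = 0.00589), as did each of the 3 probe sets. Irs2, an insulin receptor substrate, fell from 6.21 to 7.24 to 5.74 to 5.87 (-0.96, SE 0.20, adjusted p = 0.00593). Pck1, the key enzyme of gluconeogenesis, read 12.10, 12.17, 11.47, 12.13 and 11.64 against 10.44, 11.10, 11.36 and 11.24 (-0.87, SE 0.20, adjusted p = 0.0146). Treated replicate 1 was the lowest, and without it the adjusted p of Pck1 was 0.0825. Of 17 genes of the pentose phosphate path and of NADPH supply, 3 rose (17.6%, against 1.95% of all genes tested) and 0 fell. The risers were Rpia, ribose phosphate isomerase (0.67, SE 0.14), Nadk, NAD kinase (0.47, SE 0.08), and Tkt, transketolase (0.34, SE 0.06). The other called genes of the glucose list were Khk, the fructose kinase, which rose, and the transcription factor Foxo1, which fell. The call of Khk ended without control replicate 1, 2, 3 or 5 or any treated replicate, and that of Foxo1 without control replicate 1, 2, 3 or 4 or treated replicate 2, 3 or 4 (adjusted p from 0.0519 to 0.154 over these fits).

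The largest fall was that of Egr1, an immediate-early transcription factor induced through the MAP kinases. It read 10.67, 11.09, 10.85, 10.25 and 10.92 in the controls and 7.53, 6.92, 6.64 and 6.52 with phenobarbital. The controls were within 1 unit of each other and all treated arrays were more than 2 units lower (log2 change -3.85, SE 0.44, adjusted p = 7.54e-06). Of 45 immediate-early genes tested, Egr1 was the only one that fell, and Gadd45b the only one that rose. Each is 2.22% of the list, near the 1.9% and 1.95% over all genes tested.

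Gadd45b, a stress sensor and a gene known to be induced through CAR, read 6.35, 6.24, 5.79, 6.80 and 6.02 in the controls and 8.41, 8.30, 7.99 and 8.18 with phenobarbital (1.98, SE 0.24, adjusted p = 1.51e-05). The groups were separated by more than 1 unit, and 2 of 3 probe sets were called. Of 39 genes of EGF receptor and MAP kinase signalling tested, 0 rose and 3 fell (7.69%, against 1.9% of all genes tested). Spry4, an inhibitor that this pathway induces, read 5.69, 5.64, 4.99, 5.59 and 5.09 against 3.79, 4.72, 4.48 and 3.55 (-1.27, SE 0.30, adjusted p = 0.0155). The receptor Erbb3 fell by 0.52 (SE 0.12, adjusted p = 0.00975), on the brighter of 2 probe sets. The call of Spry4 ended without treated replicate 1 or 4 (adjusted p from 0.0685 to 0.0766), and that of the transcription factor Elk4 without control replicate 1, 2, 3 or 5 or treated replicate 1, 2 or 3 (0.0536 to 0.145). Without treated replicate 1 the count was 1, and with the mean of each gene's probe sets it was 0.

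Several liver transcripts of other roles were among the 15 largest falls. Rdh16f2 and Rdh9, retinol dehydrogenase genes on chromosome 10, fell from 9.34 ± 0.694 (SD, n = 5) to 7.14 ± 0.0937 (n = 4) (-2.20, SE 0.32, adjusted p = 0.000135) and from 9.09 ± 0.346 to 7.61 ± 0.332 (-1.48, SE 0.31, adjusted p = 0.00587). Enho, which encodes the metabolic peptide adropin, read 9.56, 9.71, 9.81, 9.35 and 9.50 against 8.10, 6.92, 7.52 and 7.89 (-1.98, SE 0.29, adjusted p = 0.000194), with 2 of 4 probe sets called. Dnaic1, a dynein chain of motile cilia, is the gene next to Enho and overlaps its end. It read 6.63, 7.63, 7.33, 6.81 and 6.65 against 5.09, 4.58, 4.54 and 4.64 (-2.30, SE 0.23, adjusted p = 6.87e-07). Signals of overlapping genes may not be fully separate.

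Tff3, a trefoil peptide of mucous epithelia, read 9.41, 9.90, 10.25, 7.93 and 9.46 against 7.24, 6.04, 6.51 and 7.37 (-2.60, SE 0.51, adjusted p = 0.00394). Nipal1 and Slc41a2, both magnesium transporters, fell by 1.77 (SE 0.37, adjusted p = 0.00601) and 1.59 (SE 0.30, adjusted p = 0.00267). Tspyl4, a nucleosome assembly protein relative, read 7.97, 8.13, 9.01, 8.16 and 8.10 against 6.70, 6.34, 6.42 and 6.94 (-1.68, SE 0.25, adjusted p = 0.000228). Fam25c fell by 1.23 (SE 0.27, adjusted p = 0.00966). In none of these genes did the groups overlap.

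Bcl6, a transcriptional repressor that is higher in male liver, read 8.77, 10.11, 9.94, 9.84 and 7.54 in the controls and 6.67, 6.67, 6.07 and 7.46 with phenobarbital (-2.52, SE 0.70, adjusted p = 0.0437). Control replicate 5 was only just above treated replicate 4, and the call ended in 8 of the 9 fits with 1 array left out (without control replicate 1, 2, 3 or 4 or any treated replicate, adjusted p from 0.0564 to 0.154). Dnase2a, a lysosomal nuclease, fell by 1.39 (SE 0.35, adjusted p = 0.0264), and its call ended without control replicate 1, 2, 3 or 5 or treated replicate 2 or 3 (adjusted p from 0.0501 to 0.102). Lars2, a mitochondrial leucyl-tRNA synthetase, fell by 1.19 (SE 0.29, adjusted p = 0.0205) on its brightest probe set, while another of its 3 probe sets rose. That call ended without treated replicate 1, 2 or 3 (adjusted p from 0.0662 to 0.0736).

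**Figure D3:**
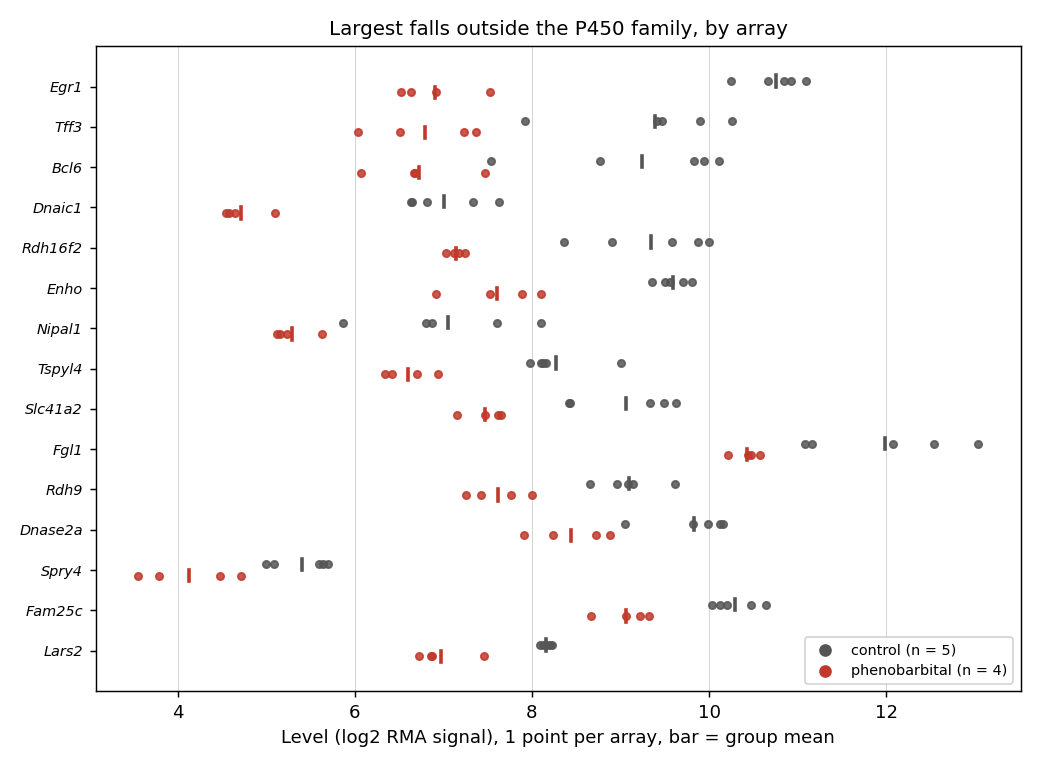
Log2 signal on each of the 5 control and 4 phenobarbital arrays for the 15 largest falls outside the P450 family, with group means as bars. All treated arrays lie below all controls, widely apart for Egr1 (6.52 to 7.53 against 10.25 to 11.09) and nearly touching for Bcl6 (highest treated array 7.46, lowest control 7.54).

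The lists of secreted liver proteins held few called genes in either direction. Over all genes tested 1.95% rose and 1.9% fell, and for 5.56% the treated arrays lay wholly below the controls. Of 36 acute-phase genes tested, 2 rose (5.56%) and 4 fell (11.1%), and for 8 the treated arrays lay wholly below the controls. Fgl1, a fibrinogen-like hepatokine, read 13.04, 12.08, 11.09, 11.16 and 12.54 against 10.44, 10.21, 10.58 and 10.48 (-1.56, SE 0.36, adjusted p = 0.0147). The treated arrays were close together and the controls spread over almost 2 units, and without treated replicate 2 its adjusted p was 0.051. Il6ra, the receptor of interleukin 6, fell from 7.59 to 7.99 to 6.52 to 6.88 (-1.09, SE 0.15, adjusted p = 9.84e-05). Itih3, a heavy chain of inter-alpha-inhibitor, and Ahsg, fetuin A, fell by 0.61 (SE 0.11) and 0.35 (SE 0.06, adjusted p = 0.0021). The 2 that rose, Orm3 and Crp, numbered 0 without any 1 of control replicates 2 to 5 or of the treated replicates.

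Of 28 hepatokines and genes of energy balance tested, 0 rose and 3 fell (10.7%, against 1.9% of all genes tested), and these were Enho, Irs2 and Ahsg, named above. With only the wild-type arrays fitted, 4 rose and 6 fell. Of 26 apolipoproteins and assembly genes, 2 rose and 2 fell (7.69% each, against 1.95% and 1.9% of all genes tested). Apoa4 rose by 0.77 (SE 0.17, adjusted p = 0.00908). The other rise counted, the lipase Lipg (0.57, SE 0.16), passed the filter only through the treated wild-type arrays. Only 1 other array was above the level for Lipg, so no p is given. Its call ended without control replicate 1, 2, 3 or 5 or treated replicate 2 or 3. In contrast, Apom, which carries sphingosine 1-phosphate, fell from 12.02 to 12.40 to 11.55 to 11.65 (-0.61, SE 0.10, adjusted p = 0.000583). Sort1, a sorting receptor, fell by 0.37 (SE 0.08, adjusted p = 0.00604) on its brightest probe set, and with the mean of its probe sets the adjusted p was 0.592. Of 43 coagulation and complement genes 1 rose (2.33%) and 2 fell (4.65%), and 0 to 3 fell when 1 array was left out. The treated arrays were wholly below the controls for 7 and above them for 2. The riser was F10, and the falls F5 and Kng1, precursors of clotting factors and of kinin. The call of F5 ended without control replicate 2, 3, 4 or 5 or any treated replicate, and that of Kng1 without control replicate 3 or treated replicate 2 or 4 (adjusted p from 0.0541 to 0.104).

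Of 62 genes of the urea cycle and amino acid breakdown tested, 1 rose (1.61%) and 3 fell (4.84%), against 1.95% and 1.9% of all genes tested. The median log2 change was -0.07. The treated arrays lay wholly below the controls for 10 of these genes and wholly above for 3, against 5.56% and 6.04% of all genes tested. Cps1, the entry enzyme of the urea cycle, read 13.80 to 13.89 against 13.62 to 13.65 (-0.19, SE 0.05, adjusted p = 0.0204), a shift of small size but larger than the spread of either group. Csad, an enzyme of taurine synthesis, read 10.19, 9.50, 9.40, 8.31 and 9.80 against 8.41, 7.40, 7.59 and 8.04, with an overlap at control replicate 4 (-1.58, SE 0.39, adjusted p = 0.0194). Without control replicate 1 or 3 or treated replicate 1, 2 or 3 the count of falls was 1, 1, 1, 1 and 0, and with only the wild-type arrays fitted it was 9. The call of Csad ended without control replicate 1 or treated replicate 2 or 3, and that of Cps1 without control replicate 3 or treated replicate 1 or 3 (adjusted p from 0.0576 to 0.0777 over these fits).

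Both zones of the liver lobule were examined by their lists. Of 42 perivenous genes and beta-catenin targets tested, 3 rose and 8 fell, with a median log2 change of -0.14. Lgr5, the R-spondin receptor of the cells at the central vein, read 6.97, 6.86, 6.40, 6.30 and 6.03 in the controls and 5.42, 5.60, 5.27 and 5.73 with phenobarbital (-1.01, SE 0.15, adjusted p = 0.000171). Slc1a2, a glutamate transporter, read 7.89, 6.78, 6.66, 7.13 and 7.60 against 6.21, 5.91, 5.90 and 6.21 (-1.15, SE 0.21, adjusted p = 0.00194). Tnfrsf19, a Wnt-induced receptor of the tumour necrosis factor family, went the other way, from between 4.74 and 6.00 to 6.95, 6.73, 7.02 and 6.86 (1.62, SE 0.18, adjusted p = 3.42e-06). Tbx3, a transcription factor of perivenous cells, fell by 0.66 (SE 0.15, adjusted p = 0.012), with overlapping groups. Its call ended without treated replicate 2 or 3 (adjusted p from 0.0521 to 0.0637) and with only the wild-type arrays fitted.

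The number of perivenous genes that fell was 4 or 5 without control replicate 1 or 2, 5 without treated replicate 1, and 3 without treated replicate 2 or 3. Of 35 periportal genes tested, 2 rose (5.71%) and 6 fell (17.1%), against 1.95% and 1.9% of all genes tested, with a median of -0.09. Treated and control arrays were separate for 2 upward and 10 downward, against 6.04% and 5.56% of all genes tested. Slc7a2, a carrier of arginine, fell from 11.44 to 12.05 to 10.50 to 11.04 (-0.99, SE 0.13, adjusted p = 3.74e-05). Mfsd2a, a carrier of lysophospholipids that contain omega-3 fatty acids, rose, from 6.39, 5.62, 5.50, 6.38 and 5.70 to 7.28, 8.18, 8.04 and 7.05 (1.72, SE 0.30, adjusted p = 0.00141). The count of periportal falls was 3 without control replicate 2 or 3 or treated replicate 4, 1 without treated replicate 1 and 2 without treated replicate 3, while the count of rises was 2 in each of these fits, so that falls then no longer outnumbered rises. Of 36 Wnt ligands, receptors and regulators 0 rose and 2 fell (5.56%, against 1.9% of all genes tested). The falls were Tcf7l2 and Csnk1a1, and neither passed without control replicate 1 or treated replicate 1 or 3. The call of Tcf7l2 ended without any 1 of control replicates 1 to 4 or of the treated replicates (adjusted p from 0.0517 to 0.162).

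Of 30 imprinted genes tested, 2 rose (6.67%) and 1 fell (3.33%), against 1.95% and 1.9% of all genes tested. Meg3 and Rian, non-coding RNAs that lie next to each other on chromosome 12 (109540996 to 109661716), rose together. Meg3 read 8.37, 9.24, 8.78, 9.09 and 8.49 in the controls and 10.87 ± 0.0937 (SD, n = 4) with phenobarbital (2.07, SE 0.12), and Rian read 5.99, 6.76, 6.55, 6.74 and 5.90 against 8.03, 8.27, 7.89 and 7.58 (1.56, SE 0.20). In both, control replicates 1 and 5 were the lowest. The single fall, Slc38a4, did not pass without control replicate 2, 3 or 4 or treated replicate 1, 2 or 3 (adjusted p from 0.0521 to 0.107).

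Genes whose liver level differs between the sexes were examined because several of them, such as Sult1e1, lie among the large rises in these males, so the count below restates what prompted it and is no independent evidence. Of 25 female-biased genes tested, 7 rose (28.0%) and 2 fell (8.0%), against 1.95% and 1.9% of all genes tested. The risers were Cyp2b9, Cyp2b13, Sult1e1, Prom1, Hao2, Gna14 and Slc22a26. Sult1e1 passed the filter only through the treated wild-type arrays and could be counted only by rising. Without treated replicate 3 the count of falls was 1. Hao2, a peroxisomal hydroxyacid oxidase, read 4.17 to 4.75 in the controls and 6.66, 7.13 and 6.98 in treated replicates 1, 2 and 3 (1.98, SE 0.50, adjusted p = 0.0231). Treated replicate 4 was close to the controls, and the call ended without control replicate 2 or treated replicate 1, 2 or 3 (adjusted p from 0.0574 to 0.0987). Of 35 male-biased genes 2 rose (Moxd1 and Lrtm1, 5.71%) and 1 fell (Bcl6, 2.86%), with a median of -0.08. Moxd1 likewise entered the test only through the treated wild-type arrays. Of 28 genes of the growth hormone and STAT5 axis Bcl6 alone fell (3.57%). The counts of male-biased genes were 0 to 2 upward and 0 or 1 downward when 1 array was left out, and 5 and 3 with only the wild-type arrays fitted.

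No programme of cell division was called. Of 47 proliferation genes tested, 0 changed by the limma test over all arrays, 3 rose and 0 fell at an unadjusted p under 0.05, with a median log2 change of 0.13 and with treated arrays wholly above the controls for 4 genes and wholly below for 1. With only the wild-type arrays fitted, 4 rose and 1 fell. Pcna, the sliding clamp of DNA replication, read 9.36 to 9.61 in the controls and 9.58 to 9.75 with phenobarbital (log2 change 0.13, SE 0.19, adjusted p = 0.841). Of 40 genes of p53, growth arrest and CAR-linked growth, Gadd45b rose and the cell cycle inhibitor Cdkn1b fell, from 7.77, 7.81, 7.73, 7.76 and 7.69 to 7.40, 7.31, 7.41 and 7.39 (-0.38, SE 0.06, adjusted p = 0.000932). Each is 2.5% of the list, near the 1.95% and 1.9% over all genes tested. The Cdkn1b groups were tight and separate, and 1 of its 2 probe sets passed the filter.

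For several other lists the share of called members was near or below the 3.85% of all genes tested, and with 12 to 66 members such counts of 0 to 2 say little about the lists. None of 36 proteasome genes, 44 interferon-stimulated genes and 12 genes of MHC class II passed the limma test, and at an unadjusted p under 0.05 they held 0, 1 and 0 genes. Of 66 respiratory chain genes 1 rose (Ndufa8, 0.31, SE 0.07). The proteasome subunit Psma3 read 11.91 to 12.04 in the controls and 11.91 to 11.95 with phenobarbital. Over all genes tested 2142 had an unadjusted p under 0.05. With only the wild-type arrays fitted, 3 interferon-stimulated genes fell. Of 53 genes of the unfolded protein response and secretion, the translocon gene Sec63 and the stress sensor Ern1 were called in opposite directions, and neither call held without treated replicate 1.

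Among markers of non-parenchymal cells, 0 of 27 for macrophages, 0 of 38 for stellate cells and matrix, 0 of 32 for endothelium and 0 of 4 for blood cells changed by the limma test. At an unadjusted p under 0.05 these lists held 1 macrophage gene (lower), 1 stellate gene (lower), 1 endothelial gene higher and 4 lower, and 0 blood genes. The macrophage list had a median of -0.24, and its mean per array was 6.47 to 7.10 in the controls and 6.46 to 6.63 with phenobarbital, so that the treated arrays lay within or just below the control range. Csf1r, the macrophage growth factor receptor, read 9.05 to 9.98 in the controls and 8.95 to 9.20 with phenobarbital (-0.46, SE 0.43, adjusted p = 0.712). With only the wild-type arrays fitted 1 macrophage marker fell, 1 blood cell marker rose, and 1 marker each of stellate and endothelial cells went in either direction. The endothelial and stellate lists had overlapping means (6.76 to 6.97 against 6.75 to 6.99, and 6.59 to 6.78 against 6.58 to 6.79). Of 16 lymphocyte markers only Ighm, the heavy chain of immunoglobulin M, changed, and 6 of the 16 were below the filter's level on all 9 arrays. Ighm read 9.03, 9.26, 10.12, 7.94 and 8.12 in the controls and 10.63, 10.38, 10.61 and 10.72 with phenobarbital (1.69, SE 0.32, adjusted p = 0.00248), and 2 of its 4 tested probe sets rose. The part of these cells in the results above was not tested.

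**Figure D4:**
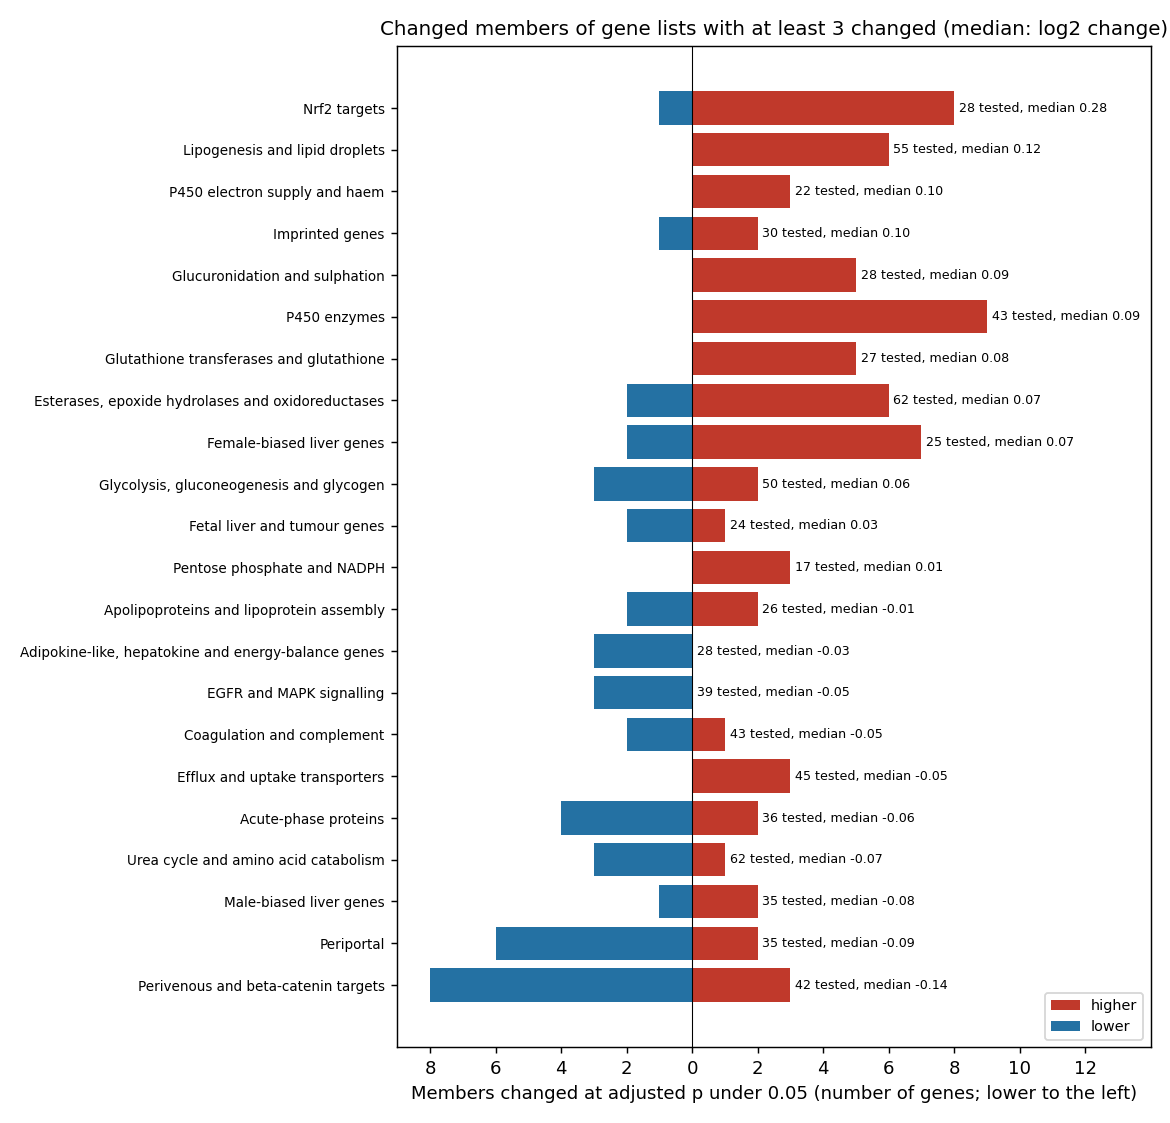
Number of genes called higher (right) and lower (left) with phenobarbital in wild-type liver, for the gene lists with at least 3 called members, with the members tested and the median log2 change beside each bar. Drug metabolism, Nrf2 and fat synthesis lists lie to the right, with 8 of 28 Nrf2 targets higher, and the zonal lists to the left, with 8 of 42 perivenous genes lower. Lists share members.

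Several called genes sat side by side in the genome, and 29 runs of at least 2 neighbouring tested genes changed in the same direction. The longest was the run of Cyp2b10, Cyp2b13, Cyp2b9 and Cyp2g1 on chromosome 7. Others upward included the pairs Gstt3 and Gstt1, Gstm1 and Gstm4, Pnpla5 and Pnpla3, Sult1d1 and Sult1e1, Aldh1a1 and Aldh1a7, Cyp2c55 and Cyp2c65, and Meg3 and Rian. Most of these pairs are gene duplicates or share a domain, in which probe sets of one gene may also bind RNA of the other. Further runs, not all named here, joined unrelated genes, such as Fam171a1 and Nmt2 upward and Dnaic1 and Enho downward. How many runs would arise by chance was not tested.

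The same change of diet was then compared between wild-type liver and the arrays labelled knockout, to ask where the effect depended on the genotype. The probe sets of Ctnnb1 did not check these labels: the brightest read 12.18 to 12.23 in wild-type controls and 12.11 to 12.42 in knockout controls, and its place relative to the deleted part is not given in the sources used here. In the arrays labelled knockout 284 genes changed (2.05%), of which 162 rose (1.17%) and 122 fell (0.882%) with phenobarbital, and 85 genes changed in the same direction in both genotypes and 1 in opposite directions. The difference of the effects passed the test for 121 genes (0.875%). Of the 532 genes that changed in wild type, 97 were among them, 60 of the rises and 37 of the falls. Without treated wild-type replicate 1, 3 or 4 the count of 121 was 74, 61 or 77.

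Of the 15 largest rises outside the P450 family, 10 had a called difference. The 15 genes were chosen for a large change in wild type, and the same wild-type arrays enter the difference. Smaller effects in the arrays labelled knockout thus follow in part from the choice, and the values are a description. Pnliprp1, Sult1e1 and Fam171a1 also entered the test only through the treated wild-type arrays, so their called differences are no support. Pnliprp1 went from 3.14 ± 0.125 to 3.22 ± 0.156 there (SD, n = 7 and 7), a change of 0.09 against 3.67 in wild type, and of all arrays only the treated wild-type ones were above the level. Sult1e1 went from 4.03 ± 0.566 to 4.27 ± 0.491, Serpinb1a from 4.40 ± 0.233 to 4.63 ± 0.394, and Fam171a1 from 4.48 ± 0.159 to 4.16 ± 0.142. Kcnk1 stayed at 4.61 ± 0.139 and 4.77 ± 0.185, under every wild-type control array. Nebl rose in both, by 2.37 from a higher start of 5.74 ± 0.451 (interaction -2.83, adjusted p = 5.39e-07). Smpd3, Cnmd, Sult1c2, Alas1 and Moxd1 did not pass the test of the difference.

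Meg3 stood at 7.19 ± 0.0757 and 7.08 ± 0.109 in the arrays labelled knockout, without and with phenobarbital, where wild-type controls already read 8.37 to 9.24 (interaction adjusted p = 1.76e-08). Gadd45b changed by 0.16 there against 1.98 (interaction adjusted p = 0.00314), Tnfrsf19 by 0.04 against 1.62 (0.000372), and Cdkn1b by 0.06 against -0.38 (0.00792). Among the falls, Egr1 changed by -0.64 against -3.85 (interaction adjusted p = 0.00465), Lgr5 by 0.09 against -1.01 (0.00378), Slc1a2 by 0.01 against -1.15 (0.0347) and Acaa1a by -0.09 against -0.80 (0.000146). The 2 comparisons share no array. In the arrays labelled knockout, Lgr5 averaged 4.40 without and 4.48 with phenobarbital, and Slc1a2 4.76 and 4.78. Both genes were thus near the level of 4.56 from the wild-type controls, where a fall can hardly be measured. Their called differences therefore do not show that these falls depended on the genotype. Tnfrsf19 averaged 3.66 and 3.70 there, below that level, where signals carry little information.

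For other effects the difference between the genotypes did not pass, which does not show that they were alike. Cyp2c55 rose by 4.53 in wild type, and in the arrays labelled knockout it went from 8.54 ± 0.935 to 12.54 ± 0.294 (interaction -0.54, SE 0.47, adjusted p = 0.803). The rises in wild type and knockout were 0.76 and 0.77 for Sult1d1, 0.94 and 0.84 for Ephx1, 1.09 and 1.22 for Gsta2, and 0.76 and 0.96 for Ces1g. The glutathione transferases Gstm4 and Gstt1 rose by 0.75 and 0.42 there, against 1.13 and 0.55. The lipogenic genes Pnpla3, Pnpla5 and Acaca, with changes of 0.13, -0.03 and 0.07 against 2.03, 1.39 and 0.49, did not pass the test of the difference (adjusted p = 0.133, 0.147 and 0.25).

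**Figure D5:**
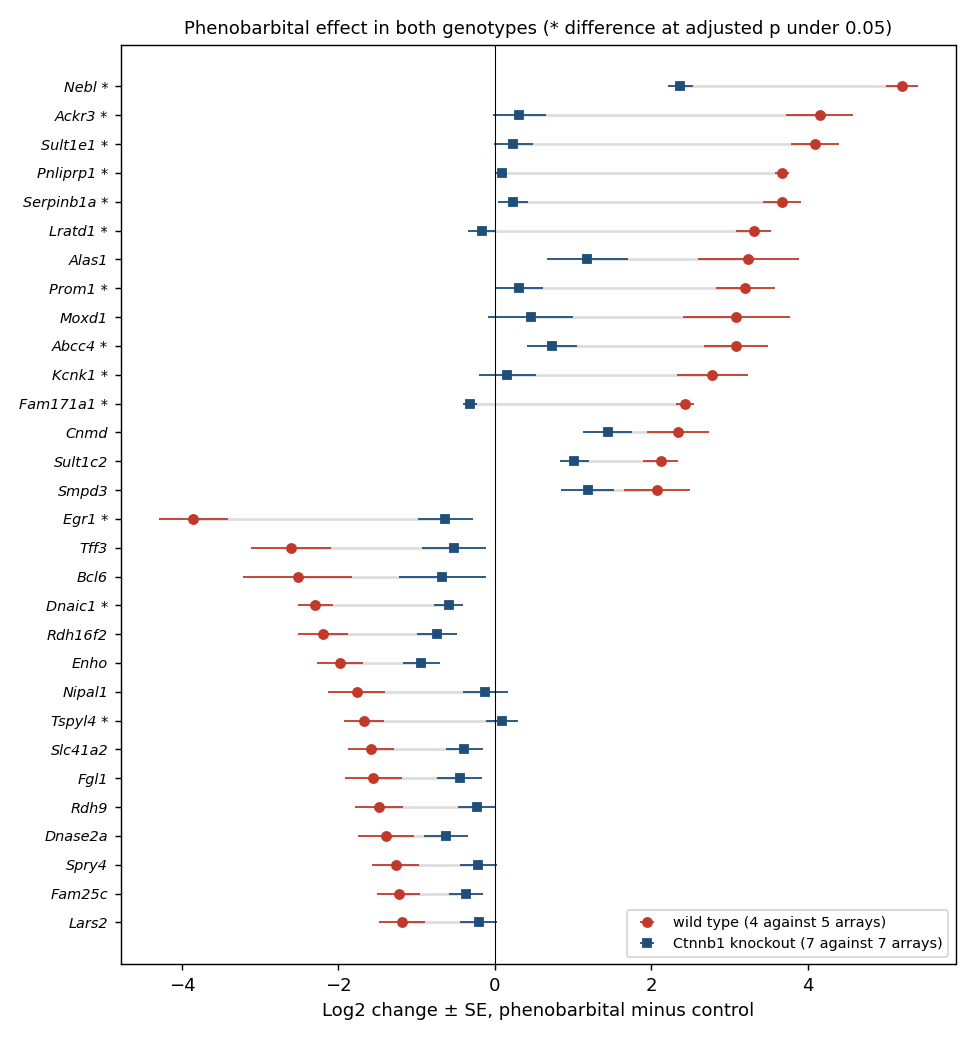
Log2 change with phenobarbital (± SE) in wild-type liver (circles, 4 against 5 arrays) and in the arrays labelled Ctnnb1 knockout (squares, 7 against 7 arrays) for the 15 largest rises and falls in wild type. A star marks the 13 genes whose change differed between the genotypes at an adjusted p under 0.05, and since genes were chosen for a large wild-type change, knockout values nearer to 0 follow in part from that choice. Of the starred genes, Pnliprp1, Sult1e1 and Fam171a1 entered the test only through the treated wild-type arrays.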

How the data were processed

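Affymetrix expression arrays were hybridised with RNA of 23 liver samples from mice. The authors deposited log2 signals, a value for each probe set. Per the submitters' processing notes the authors used RMA and affy, whose versions are not given in the sources used here. Values were used as deposited.

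The annotation gave 1 gene for 34945 of 45037 probe sets, several for 932 and none for 9160. Of the symbols, 34741 were updated by Entrez identifier with the GRCm38.p6 table and 204 left as annotated. For each of 18193 genes the probe set with the highest mean was taken. Genes whose signal exceeded an array's 40th percentile on at least 4 arrays were tested (13826). A model with 1 mean per group was fitted with limma 3.58.1 in R 4.3.3 (lmFit, contrasts, eBayes, 19 residual degrees of freedom, two-sided, Benjamini-Hochberg over all genes tested).

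On simulated data of this size, 95% of 2-fold and 98% of 4-fold changes were recovered with 10 false calls. The simulation gave each gene the same spread in every group. The real groups differed, with a median SD per gene from 0.0937 in treated wild type to 0.160 in knockout controls. The rates may therefore not hold for these data. Named genes were the 15 largest rises and falls outside P450 genes and placeholder symbols without overlap between groups, called genes turned on or off, up to 5 called members per list with the largest change, and Cyp2b10. Pcna, Psma3 and Csf1r, each from a list with no call, are single examples outside this set of named genes. Nmt2, Cyp2g1, Gna14, Slc22a26, Aldh1a1, Aldh1a7 and Ctnnb1 lie outside this rule and were named after their values were seen. The comparison, the 49 gene lists and the rule were chosen with earlier results of these data known. Alternatives were other filters, scalings, probe set summaries, priors and weights, a replicate block, only wild-type arrays and each array left out.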

Additional observations from a re-analysis of the deposited data

Results flagged for a closer look

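Among the 15 largest rises and falls, which were chosen for their change in wild type, the effect of phenobarbital in knockout minus that in wild type passed the limma test for 13 genes. Of these, Pnliprp1, Sult1e1 and Fam171a1 entered the test only through the treated wild-type arrays, so their values are a description. On the log2 scale the difference was -2.83 for Nebl, -3.84 for Ackr3, -3.86 for Sult1e1, -3.59 for Pnliprp1, -3.44 for Serpinb1a, -3.47 for Lratd1, -2.89 for Prom1, -2.35 for Abcc4, -2.62 for Kcnk1 and -2.75 for Fam171a1. For genes that fell in wild type it was 3.22 for Egr1, 1.70 for Dnaic1 and 1.77 for Tspyl4. Dnaic1 averaged 5.24 in knockout controls against 7.01 in wild-type controls, which left less room above background for a fall.

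Single arrays passed Dixon's criterion for 7 named genes among the 224 groups examined. Chance alone gives about 1 in 20 groups, or 11.2 here, so these arrays are no more than chance would give. Control replicate 3 was highest for Tspyl4 (9.01) and lowest for Pklr (8.27). Treated replicate 2 was highest for Aldh1b1 (8.92) and Ahr (10.35) and lowest for Il6ra (6.52). Treated replicate 3 was lowest for Kantr (3.91), and treated replicate 4 for Cyb5a (13.50).

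Of 3938 tested probe sets assigned to no gene, 42 rose and 88 fell with phenobarbital in wild-type liver. The largest rises were those of 1443137_at, by 5.097 from 4.38 ± 0.212 (SD, n = 5) to 9.48 ± 0.158 (n = 4), of 1438068_at, by 2.61, and of 1423556_at, by 2.07.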

How the results depend on the processing

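Of the 112 named genes called in wild type, 60 kept their call under every alternative that tested them (14 for Pnliprp1, 18 for the others), and no named gene that was called changed direction under any of them. Genes called higher and lower, 269 and 263, numbered 485 and 457 with only the wild-type arrays fitted and 614 and 627 with 1 weight per group. With the replicate block they numbered 165 and 110, and the genes whose effect differed between genotypes 50 in place of 121. The labels share replicate numbers between the groups, and whether these numbers pair the arrays is not known. Over all genes tested, deviations of same-numbered wild-type arrays correlated little (-0.0073, 0.066, -0.0065 and -0.021). Such values cannot exclude a pairing that acts on part of the genes. The replicate block ended 40 named calls. Leaving out 1 array gave 188 to 260 genes higher, 120 to 298 lower, 70 to 92 changed at least 2-fold and 61 to 123 with a genotype difference. Genes turned on numbered 5 and 21, and genes turned off 0 and 2, with the level at 30% and 50% of probe sets. Of the called genes 50.6% rose, against 54.3% after quantile normalization and 46.6% after median centring. Signals near background limit the falls of genes with low control levels.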
